A study of Mus musculus with 6 samples.

Results

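The miR-378 family was followed in serum exosomes through the 5 rows of the deposited count table that carry its name, out of 1982 rows in all. The rows were chosen by name and are mmu-miR-378a-3p and mmu-miR-378a-5p, both arms of the hairpin in an intron of Ppargc1b, and mmu-miR-378b, mmu-miR-378c and mmu-miR-378d. They are written without the species prefix below. Small RNA was sequenced from the blood exosomes of 6 male C57BL/6 mice aged 3 months. In 3 Acu/LFES mice (acupuncture with low frequency electrical stimulation) current was passed once through hindlimb needles, and in 3 sham mice needles were placed close by and connected without current. The mice carried no transgene or other agent in the labels, each mouse gave its own library, and the time between treatment and blood collection is not given for these samples.

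miRNAs are short RNAs that guide Argonaute proteins to mRNAs, and they pair mainly through the seed, bases 2 to 8 from the 5′ end. miR-378a is transcribed together with its host gene Ppargc1b, which encodes PGC-1β, a coactivator of genes of mitochondrial metabolism. It is known from skeletal muscle, heart, liver and fat, and its arms are known to repress, among others, the carnitine acetyltransferase Crat and Med13, a subunit of the Mediator complex. miR-378b, miR-378c and miR-378d come from other hairpins, have mature sequences of the same type, and are far less studied.

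The mature sequences of miR-378b, miR-378c and miR-378d are shown because reads of such similar miRNAs are easily assigned to a neighbouring row. They were matched by name to RefSeq on GRCm38.p6 (3 of the 5 rows matched; miR-378a-3p and miR-378a-5p did not). Each reads 5′ to 3′, with the seed in capitals.
miR-378b: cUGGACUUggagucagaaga
miR-378c: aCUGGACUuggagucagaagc
miR-378d: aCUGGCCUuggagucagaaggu
miR-378b starts 1 base later than the other two, so that its seed is UGGACUU against CUGGACU in miR-378c and CUGGCCU in miR-378d. With miR-378b aligned at this shift and positions counted from its own 5′ end, A20C is the only change to miR-378c, and A5C and A20G are the changes to miR-378d. Between miR-378c and miR-378d, counted from the 5′ end of miR-378c, the changes are A6C, inside the seed, and C21G. All 3 share the run CUUGGAGUCAGAAG of 14 bases.

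The 3 hairpins lie apart in the genome. Mir378b is on chromosome 11 from 88352773 to 88352864 on the plus strand, inside an intron of Msi2, a gene read from the other strand, and its mature sequence runs from 88352839 to 88352858. Mir378c is on chromosome 14 from 46954830 to 46954928 on the minus strand, inside an intron of Samd4, again on the other strand, with the mature sequence from 46954905 to 46954925. Mir378d is on chromosome 10 from 126710282 to 126710391 on the minus strand, with the mature sequence from 126710355 to 126710376, and overlaps no other gene of GENCODE M21. The mature sequence starts at base 67 of 92 of the miR-378b hairpin, and at base 4 of 99 and base 16 of 110 of the miR-378c and miR-378d hairpins. These positions come from the reference, since the count table gives names only.

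The 5 rows did not duplicate each other. Their counts formed 5 distinct patterns over the 6 libraries, and 0 other rows of the table had the counts of any member in all libraries. Of the 954 rows with a count, 382 shared all 6 counts with another row, and of the 229 rows with at least 100 counts, 8 did. Among the members only miR-378a-3p and miR-378a-5p reached 100 counts over the 6 libraries. Since no member row repeated another, the family can be added up without counting a row again. A read with a mismatch or a shifted end could still have been given to a neighbouring row, or to several rows at once. The number of mismatches allowed is not given in the sources used here. The libraries held between 391708 and 1504137 counts, and 3 counts, the least taken to show a miRNA, amounted to between 1.80 and 9.93 normalized CPM (counts per 1000000, after scaling with edgeR's TMM factors). These limits and the Wilson and Poisson intervals below cover counting error only, while the edgeR intervals also include variation between mice.

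miR-378a-3p carried almost the whole family. Sham mice 1, 2 and 3 gave 1795, 815 and 596 raw counts, and Acu/LFES mice 4, 5 and 6 gave 3485, 859 and 2210. As normalized CPM these were 2593, 1905 and 1974 in the sham group and 2090.05, 1789.8 and 2021 in the Acu/LFES group. Sham mouse 1 was the highest and Acu/LFES mouse 5 the lowest, and the groups overlapped. In exosome RNA, fewer vesicles from a source and fewer miRNA copies per vesicle cannot be told apart. The mean was 2157 ± 379 CPM in the sham and 1967 ± 157 CPM in the Acu/LFES group (SD over 3 mice each). miR-378a-3p ranked 39 by mean normalized CPM among the 954 rows with a count. Its coefficient of variation over the 6 mice was 13.6%, against a median of 47.1% over the 259 miRNAs tested and of 26.3% over the 50 of them with a mean of at least 1000 CPM. Of the 259, 7 varied less, and of the 50, 5 did. This low variation holds for values scaled with TMM factors. With total counts miR-378a-3p ran from 1237 CPM in sham mouse 2 to 4271 CPM in Acu/LFES mouse 6.

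**Figure D1:**
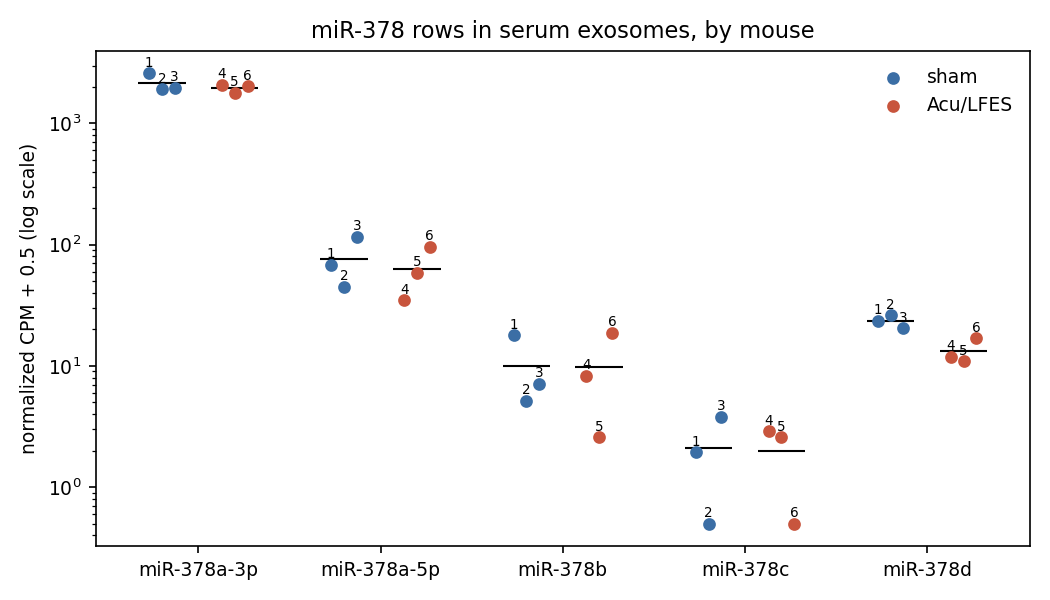
Normalized CPM plus 0.5, on a log axis, of the 5 miR-378 rows in each mouse, with mouse numbers beside the points and the group mean as a black line. miR-378a-3p lies between 1789.8 and 2593 CPM, miR-378a-5p between 34.2 and 116 CPM, and the 3 sham points of miR-378d above the 3 Acu/LFES points.

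miR-378a-5p, the other arm of the same hairpin, was the second row of the family in all 6 libraries. Its raw counts were 47, 19 and 35 in the sham group and 57, 28 and 105 in the Acu/LFES group, or 67.9, 44.4 and 116 and then 34.2, 58.3 and 96.0 normalized CPM. Mice 3 and 6 were the high ones, one in each group, and the groups overlapped. Each count of miR-378a-5p came with 38.2, 42.9 and 17.0 counts of miR-378a-3p in the sham group and with 61.1, 30.7 and 21.0 in the Acu/LFES group. The proportion of the arms differed between libraries by more than counting error, which does not include the variation of library preparation. miR-378a-5p took 5.55% of the counts of both arms in sham mouse 3 (95% Wilson interval 4.02% to 7.62%) and 1.61% in Acu/LFES mouse 4 (1.24% to 2.08%), and the interval of mouse 3 also lay above those of sham mice 1 (1.92% to 3.38%) and 2 (1.46% to 3.53%). In the Acu/LFES group the interval of mouse 4 likewise lay below those of mice 5 and 6. The log2 ratio of miR-378a-3p to miR-378a-5p was 4.90 ± 0.72 in the sham and 5.08 ± 0.78 in the Acu/LFES group (SD over 3 mice each; exact two-sided permutation p = 0.9, 0.1 being the lowest value possible here). Without mouse 3 or mouse 4 the small difference of 0.18 turned to -0.24 and -0.25.

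miR-378d was the most counted of the look-alike rows, with 16, 11 and 6 raw counts in the sham group and 19, 5 and 18 in the Acu/LFES group. As normalized CPM these were 23.1, 25.7 and 19.9 in the sham group and 11.4, 10.4 and 16.5 in the Acu/LFES group. With these factors all Acu/LFES mice lay below all sham mice. With total counts they did not, since CPM was then 25.6, 16.7 and 15.3 in the sham group and 12.6, 7.92 and 34.8 in the Acu/LFES group, with mouse 6 the highest of all. The groups did not overlap in 17.0% of the 259 miRNAs tested, so a gap of this kind was not particular to miR-378d. The counts behind it are small: the exact Poisson interval of the 6 counts in sham mouse 3 reached from 2.20 to 13.1, and that of the 5 counts in Acu/LFES mouse 5 from 1.62 to 11.7.

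The groups also did not overlap when miR-378d was set against miR-378a-3p in the same library, which needs no scaling factor. The same miR-378d counts enter this ratio, so it is not a separate observation, and the order of the mice within each group differed. Per 100 counts of miR-378a-3p there were 0.891, 1.35 and 1.01 counts of miR-378d in the sham group and 0.545, 0.582 and 0.814 in the Acu/LFES group. The means differed by -0.44 (exact two-sided permutation p = 0.1, the lowest value possible here). This ratio and that of miR-378b were chosen after the values were seen, and the p adjusted over the 5 within-library measures tested was 0.5. The counting intervals of all 6 mice overlapped, from 0.347% to 0.845% of the 2 rows together in Acu/LFES mouse 4 and from 0.745% to 2.37% in sham mouse 2. Leaving out each mouse in turn left the difference between -0.53 and -0.30.

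miR-378b had 12, 2 and 2 raw counts in the sham group and 13, 1 and 20 in the Acu/LFES group, which is 17.3, 4.68 and 6.62 and then 7.80, 2.08 and 18.3 normalized CPM. Mice 1 and 6 were high and mouse 5 was low, and the groups overlapped. Per 100 counts of miR-378a-3p, miR-378b stood at 0.669, 0.245 and 0.336 in the sham group and at 0.373, 0.116 and 0.905 in the Acu/LFES group (exact two-sided permutation p = 0.8). miR-378b had too few counts for the edgeR test. miR-378c was barely present. It had 1, 0 and 1 counts in the sham group and 4, 1 and 0 in the Acu/LFES group, so that Acu/LFES mouse 4 alone exceeded 3 counts, and no fold is given. The 0 counts in sham mouse 2 and Acu/LFES mouse 6 allow up to 7.01 and 2.74 normalized CPM at the limit of 3 counts.

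**Figure D2:**
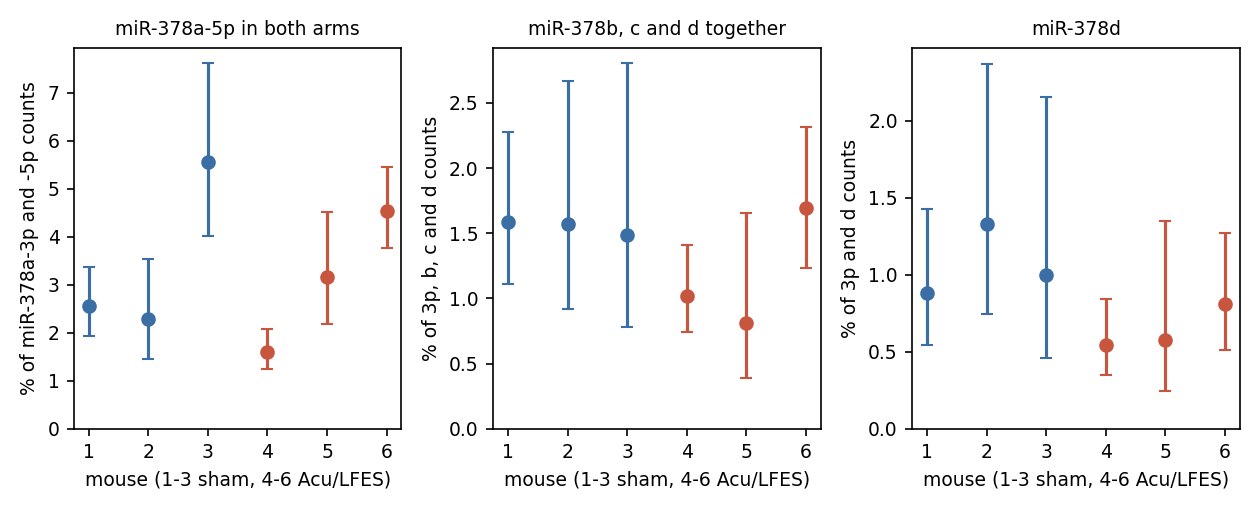
Shares within each library, in percent of the counts named on each axis, with 95% Wilson intervals as bars and sham mice in blue and Acu/LFES mice in red. miR-378a-5p is highest in mice 3 and 6, the look-alike rows together stay between 0.808% and 1.69%, and the miR-378d points of the sham mice lie above those of the Acu/LFES mice with overlapping intervals.

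Taken as 1 group, miR-378b, miR-378c and miR-378d held a small share of the counts on rows of the miR-378a-3p type. The share was 1.59%, 1.57% and 1.49% in sham mice 1, 2 and 3 and 1.02%, 0.808% and 1.69% in Acu/LFES mice 4, 5 and 6, and the Wilson intervals of all 6 libraries overlapped. Their mean was 1.55% ± 0.054 in the sham and 1.17% ± 0.46 in the Acu/LFES group (SD over 3 mice each; exact two-sided permutation p = 0.4). With miR-378a-5p included, the rows other than miR-378a-3p took 4.91% ± 1.71 of the family in the sham and 4.20% ± 1.76 in the Acu/LFES group (SD over 3 mice each; exact two-sided permutation p = 0.6). This difference of -0.71 percentage points turned to 0.28 without mouse 3 and to 0.091 without mouse 4.

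The levels fell in the order miR-378a-3p, miR-378a-5p, miR-378d, miR-378b and miR-378c, compared as raw counts within a library and without a length correction, since mature miRNAs are of like length (20 to 22 bases for the 3 shown). miR-378a-3p exceeded miR-378a-5p in 6 of 6 libraries, by 4.99 ± 0.68 on the log2 scale (SD, n = 6), and miR-378a-5p exceeded miR-378d in 6 of 6, by 1.86 ± 0.70 (exact sign-flip permutation tests, two-sided, p = 0.0312 for each, the smallest that 6 libraries allow). miR-378d exceeded miR-378b in 5 of 6 libraries, by 1.04 ± 0.92 (SD, n = 6), and miR-378b exceeded miR-378c in 5 of 6, by 2.18 ± 1.90 (SD, n = 6; p = 0.0625 for each in the same exact test). After adjustment over these 4 pairs, which were chosen after the values were seen, p was 0.0625 for each. In Acu/LFES mouse 6 miR-378b stood above miR-378d, with 20 against 18 counts.

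Exosomes were sequenced to learn whether Acu/LFES changes the miRNAs they carry, as a step in a study of muscle protein synthesis, and the family was tested for such a change within the fit over all 259 miRNAs with enough counts. miR-378a-3p, miR-378a-5p and miR-378d were tested, and 0 of the 3 passed a Benjamini-Hochberg adjusted p of 0.05 by the quasi-likelihood method of edgeR. Over all miRNAs tested the share at that level was 0%, and 8.88% (23 of 259) had an unadjusted p under 0.05, of which 0 were members. With the Wald test of DESeq2, 8 of the 259 had an adjusted p under 0.05, of which 0 were members, and miR-378d was given no adjusted p. miR-378a-3p differed between Acu/LFES and sham by a log2 fold change of -0.13 (with a standard error of 0.22 and an adjusted p of 0.902 in edgeR). Its 95% interval of -0.62 to 0.36 spans a fold of 0.649 to 1.28, which is the precision that these 3 mice per group give. Without sham mouse 1 the log2 fold change was 0.055.

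For the less counted rows the same interval was wide. miR-378a-5p differed by -0.27 on the log2 scale (standard error 0.68, adjusted p = 0.929 in edgeR), with an interval of -1.78 to 1.24, and it was 0.18 without mouse 3 and 0.017 without mouse 4. miR-378d had -0.83 (standard error 0.81, adjusted p = 0.799 in edgeR), with an interval of -2.64 to 0.97, which spans a fold of 0.161 to 1.96. With the 5 rows replaced by their sum, the log2 fold change was -0.16 (standard error 0.22, interval -0.64 to 0.32, adjusted p = 0.865 in edgeR), and 0.038 without mouse 1. The sum does not depend on how reads were divided among the rows, provided that each read was counted in a single row, which is not known here.

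**Figure D3:**
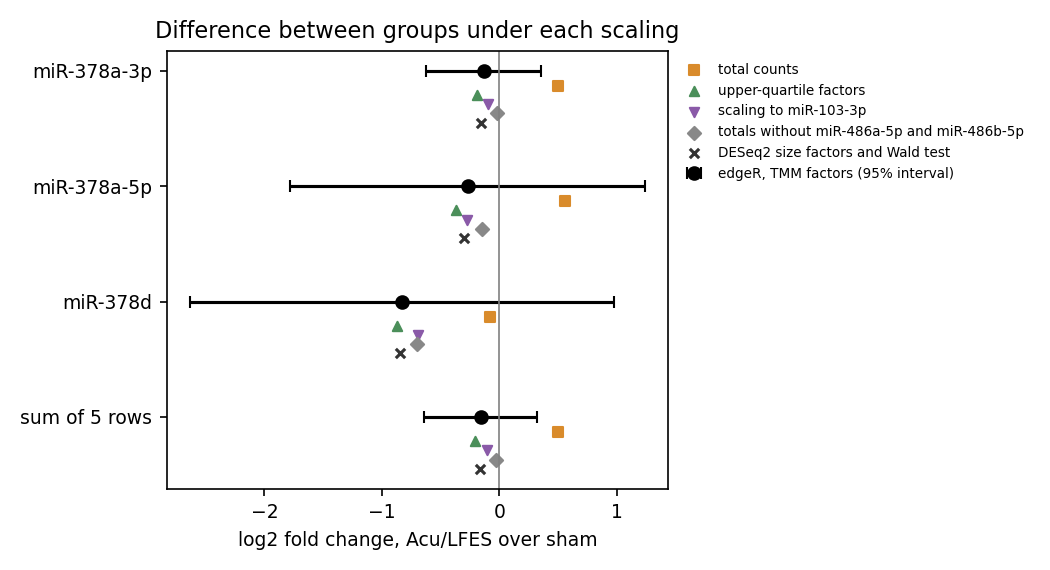
Log2 fold change of Acu/LFES over sham for the 3 tested rows and the sum of the 5 rows, with the edgeR estimate and its 95% interval in black and the estimates under other scalings or DESeq2 below it. All 4 intervals include 0, and scaling to total counts moves each estimate to the right, to 0.50 for miR-378a-3p.

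The sign of the difference for miR-378a-3p, miR-378a-5p and the sum depended on how the libraries were scaled, while that of miR-378d did not under the alternatives run. miR-486a-5p and miR-486b-5p, read below as red-cell markers, took between 61.7% and 74.0% of the counts in the sham group, and 61.9%, 73.5% and 29.2% in Acu/LFES mice 4, 5 and 6. Both rows carried identical counts in every library, so these shares and the library totals add the same counts again. miR-486a-5p is also on the list below of miRNAs from introns of protein-coding genes. The miR-378 rows took 0.299%, 0.129% and 0.163% of all counts in the sham group and 0.238%, 0.142% and 0.455% in the Acu/LFES group. Mouse 6 thus had the largest share of miR-378 and the smallest of miR-486, and its TMM factor was 2.12 against 0.65 to 1.11 in the other mice. The mean share was 0.197% ± 0.090 in the sham and 0.278% ± 0.16 in the Acu/LFES group (SD over 3 mice each; exact two-sided permutation p = 0.6), a difference of 0.081 percentage points that was -0.0074 without mouse 6. With the miR-486 rows left out of the total, the share was 0.614% ± 0.15 in the sham and 0.600% ± 0.058 in the Acu/LFES group (SD over 3 mice each; exact two-sided permutation p = 0.9). With rows of identical counts entering the total once, the share was 0.298% ± 0.12 in the sham and 0.369% ± 0.16 in the Acu/LFES group (SD over 3 mice each; exact two-sided permutation p = 0.6). With total counts in place of TMM factors the log2 fold change was 0.50 for miR-378a-3p, 0.56 for miR-378a-5p and -0.077 for miR-378d, while the median of all miRNAs tested rose from 0.05 to 0.71. Relative to that median, miR-378a-3p stood at -0.18 with TMM factors and at -0.21 with total counts.

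**Figure D4:**
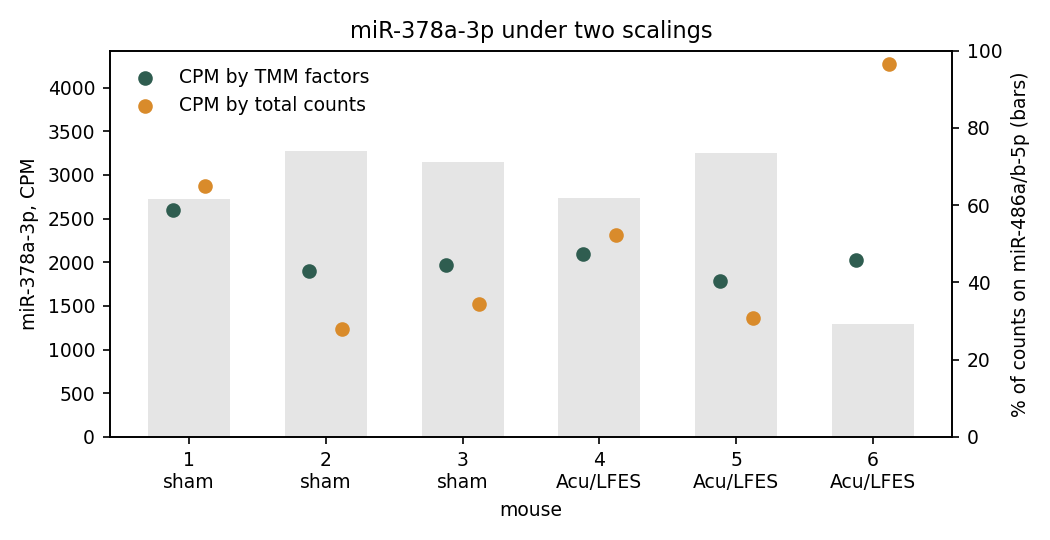
miR-378a-3p in each mouse as CPM by TMM factors (green) and by total counts (orange), left axis, over bars for the percent of counts on miR-486a-5p and miR-486b-5p, right axis. Both miR-486 rows hold identical counts and are added in the bars. With TMM factors the mice lie between 1789.8 and 2593 CPM, and with total counts mouse 6, whose bar is the lowest, rises to 4271 CPM.

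The miRNAs nearest to miR-378a-3p were found from the root mean square difference of log2 normalized CPM, centred for each miRNA, over the 6 mice. The difference is not scaled to variation, so a steady miRNA has mainly other steady ones near it, and nearness does not show that they vary together. miR-378a-3p was highest in mouse 1, and none of the 5 named next was. Among 256 tested miRNAs outside the family they were miR-98-5p at 0.17, miR-30d-5p at 0.18, miR-3962 at 0.18, miR-192-5p at 0.21 and miR-26a-5p at 0.21, where the median miRNA stood at 0.68. miR-98-5p belongs to the let-7 family and stayed between 742 and 922 CPM. miR-192-5p, which is enriched in liver and gut, stayed between 2335 and 2943 CPM. miR-26a-5p, which is broadly expressed, stayed between 1359 and 1835 CPM. miR-3962 had a mean of only 13.8 CPM, where 3 counts amount to up to 9.93 CPM, and its log2 fold change had a standard error of 0.83. The adjusted p in edgeR was at least 0.799 for all 5, and they share the libraries and the scaling factors with miR-378a-3p.

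miRNAs of the tissues in which miR-378a is known were read from listed markers. Of 7 muscle miRNAs 3 had enough counts to be tested, and 0 were higher and 0 lower at an unadjusted p under 0.05 in edgeR (background 5.79% higher and 3.09% lower). miR-1a-3p and miR-133a-3p, made in skeletal and heart muscle, had log2 fold changes of -0.011 and -0.042, and the heart and slow-fibre miRNAs miR-208a-3p and miR-208b-3p were at 0 in every library. Named after their values were seen, miR-499-5p, another miRNA of heart and slow fibres, had 0, 0 and 0 counts in sham and 51, 0 and 20 in Acu/LFES mice and was not tested, and miR-206-3p of skeletal muscle stood at -0.77 with an adjusted p of 0.751 in edgeR. The summed muscle markers ranged from 10115 to 11285 CPM in the sham and from 7499 to 12478 CPM in Acu/LFES mice. Of the markers of other cells, 0 of 6 tested red-cell, 0 of 1 liver, 0 of 4 platelet and white-cell and 0 of 2 endothelial miRNAs passed at that level in edgeR, with median log2 fold changes of 0.25, -0.67, -0.37 and -0.27 beside 0.05 for all miRNAs tested. The 7 red-cell markers, with miR-144-3p below the count filter, summed to between 579948 and 1172750 normalized CPM in the sham and between 163656 and 1014870 in the Acu/LFES group, values above 1000000 arising where the TMM factor is under 1, and their part in the levels of miR-378 was not tested. miR-486a-5p and miR-486b-5p, whose counts are identical, both enter this sum and the 6 red-cell tests.

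Other miRNAs that sit in introns of protein-coding genes, as miR-378a does, were listed as well. Of the 13 miRNAs on this list 7 were tested, 0 were higher and 0 lower at an unadjusted p under 0.05, and their median log2 fold change was -0.20. miR-33-5p and miR-33-3p, from introns of the sterol regulator Srebf2, were at 0 in every library. miR-103-3p, from introns of Pank genes of coenzyme A synthesis, had a log2 fold change of -0.20. Of 12 miRNAs of brown and white fat biology 10 were tested, 3 were higher and 1 was lower at that level, and their median was 0.46. Over all miRNAs tested 5.79% were higher and 3.09% lower, with a median of 0.05. Whether the list differed from this background was not tested. miR-27b-3p, miR-143-3p and miR-34a-5p were the higher ones and miR-30c-5p the lower one, named after their values were seen, and none had an adjusted p under 0.05 in edgeR. miR-34a-5p had 0, 0 and 0 counts in sham and 26, 16 and 35 in Acu/LFES mice. It met the count filter only through the group in which it was high, so its call is no support for a difference.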

How the data were processed

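The members and lists were chosen with earlier results of these data known. The authors deposited whole-number counts of reads on each mature miRNA, not normalized, with a column for every mouse. The submitters' processing notes name bcl2fastq, cutadapt 1.6 and DESeq2 1.26.0. The aligner, the counter and the miRNA annotation are not given in the sources used here.

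Groups were taken from the treatment labels. Rows with few counts were removed by edgeR (4.0.16, R 4.3.3) with filterByExpr, and the rest were scaled by TMM factors and tested by the quasi-likelihood method, with Benjamini-Hochberg adjustment over 259 miRNAs and a threshold of 0.05. Standard errors were taken from the F statistic. For ratios and shares within libraries, exact permutation tests (two-sided) were used, with a pseudocount of 0.5 on the log2 scale. The fit was tested on simulated data. Named miRNAs were the members, rows with identical counts, scaling references, the 5 nearest by root mean square difference and up to 3 of each list, apart from those said to be named after their values were seen. Alternatives were DESeq2 1.42.0, other scalings and filters, collapsed identical rows, a pseudocount of 1 and each mouse left out. Sequences are from RefSeq (GRCm38.p6) and gene overlaps from GENCODE M21. Plots were made in Python 3.11.15 (matplotlib 3.10.9).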

Additional observations from a re-analysis of the deposited data

How the results depend on the processing

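No member passed an adjusted p of 0.05 under any alternative run. With total counts the log2 fold change reversed to 0.50 for miR-378a-3p, 0.56 for miR-378a-5p and 0.50 for the sum of the 5 rows, and calls at an unadjusted p under 0.05 were 23 higher and 0 lower, against 15 and 8. The number of such calls, 23 in the reported fit, was 7 when libraries were scaled to miR-103-3p (7 higher, 0 lower), 53 with no filter (39 higher, 14 lower) and 26 without the miR-486 rows in the totals (20 higher, 6 lower). DESeq2 called 8 miRNAs at an adjusted p under 0.05 where edgeR called 0, and gave no adjusted p for miR-378d. The cause of these differences was not tested. The share of the miR-378 rows in all counts reversed from 0.081 to -0.014 percentage points when miR-486 was left out of the denominator.

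Across the fits without a single mouse, log2 fold changes ranged from -0.22 to 0.055 for miR-378a-3p, from -0.68 to 0.18 for miR-378a-5p, from -1.02 to -0.68 for miR-378d and from -0.22 to 0.038 for the sum. For miR-378b, given as a difference of mean log2 CPM without a test because it failed the filter, it went from -0.86 to 0.56 around -0.24. The log2 ratio of the arms went from -0.25 to 0.52, the share of all counts from -0.0074 to 0.15 percentage points, the share of rows other than miR-378a-3p from -1.65 to 0.28 points, and miR-378b per 100 counts of miR-378a-3p from -0.17 to 0.22. Calls over all miRNAs went from 19 to 48 at an unadjusted p under 0.05, with 48 without sham mouse 1, and were 0 after adjustment in these fits. The filter of at least 10 counts in every library left out miR-378d, and no fold of miR-378c is given under any setting. No paired analysis was possible because the mice carry numbers 1 to 6 that the groups do not share.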
